A study of Mus musculus with 24 samples.

Results

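A 5 Mb block of mouse chromosome 9, chr9:50000001-55000000 (mm10), was examined for the genes and subdomains at which NIH3T3 fibroblasts lost acetylated regions upon Hedgehog (HH) activation. The members were all peaks in the block from 7 lists of regions enriched by chromatin immunoprecipitation and sequencing (ChIP-seq), which gave 1374 of 368246 peaks. The block was selected on its NIH3T3 H3K27ac calls, as it held many more peaks found in control cells alone than in purmorphamine-treated cells alone, so the NIH3T3 counts below describe that choice and were not tested.

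NIH3T3 cells, a mouse embryonic fibroblast line that responds to HH, were grown to confluence and held in low-serum medium for 48 h with 400 nM purmorphamine, an agonist of the HH transducer Smoothened, or with the solvent DMSO. The labels of both NIH3T3 groups also name LIF. H3K27ac was profiled in 1000000 cells per immunoprecipitation. The other 5 lists came from E10.5 forelimb buds of Swiss Webster embryos with 32 to 35 somites, with 400000 cells per immunoprecipitation: H3K27ac and H3K4me2 in wild-type (WT) and Shh-/- buds, and H3K27me3 in Shh-/- buds. Shh-/- embryos carry a null allele of *Sonic hedgehog*, and the controls labelled wild type were, by the study's methods, a mixture of WT and heterozygous littermates whose limb buds were pooled. In all there were 14 immunoprecipitated and 10 input libraries, in 14 groups. Each list was called on 2 replicates together, so no value has a replicate error and no difference between conditions could be tested.

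H3K27ac is laid down at active enhancers and promoters, H3K4me2 marks promoters and enhancers whether or not they are active, and H3K27me3 is the mark of Polycomb repression. Long stretches without protein-coding genes often hold distal enhancers of the genes at their borders, and dense runs of acetylated regions are common near genes that a cell type uses heavily. Without HH ligand, GLI proteins act as repressors of their targets, and activation of Smoothened relieves this repression.

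The identity of the samples was checked at the starts of known genes. Both NIH3T3 lists had a peak within 1 kb of the start of all 5 fibroblast genes (*Col1a1*, *Col1a2*, *Col3a1*, *Thy1* and *Pdgfrb*), and none at the 2 blood genes. Of the 3 neuron genes, *Tubb3* (rank 66759) and *Snap25* (rank 84416) had a start peak with purmorphamine and none did in control cells, and any part of this in the results below was not tested. Both limb H3K27ac lists had a start peak at all 5 limb mesenchyme genes, and at 3 of the 5 fibroblast genes as well. Both NIH3T3 lists had one at 2 of the limb mesenchyme genes, *Prrx1* and *Prrx2*. These 2 gene sets therefore separate fibroblasts from limb buds only in part. *Gli1*, a direct HH target, had a start peak of rank 96 with purmorphamine and none in control cells.

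A few peaks are shown by sequence because they mark the ends of the range seen in the block. They are the best-ranked control-only peak, the best-ranked control-only peak more than 10 kb from any purmorphamine peak and the best-ranked purmorphamine-only peak. Each is 300 bases from the middle of the peak on the plus strand of GRCm38, and capitals mark exact matches on either strand to TGANTCA (AP-1), CATTCC (TEAD) or GACCACCCA (GLI).
Control-only, chr9:52791725-52792024, in an intron of the lincRNA gene *Gm1715*: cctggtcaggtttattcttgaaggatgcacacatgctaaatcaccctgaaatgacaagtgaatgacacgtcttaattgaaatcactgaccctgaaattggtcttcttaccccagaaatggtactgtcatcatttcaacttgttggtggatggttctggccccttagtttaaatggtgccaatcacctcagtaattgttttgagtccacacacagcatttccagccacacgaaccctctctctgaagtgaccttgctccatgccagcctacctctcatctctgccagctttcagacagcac
Control-only, chr9:52246400-52246699, between genes: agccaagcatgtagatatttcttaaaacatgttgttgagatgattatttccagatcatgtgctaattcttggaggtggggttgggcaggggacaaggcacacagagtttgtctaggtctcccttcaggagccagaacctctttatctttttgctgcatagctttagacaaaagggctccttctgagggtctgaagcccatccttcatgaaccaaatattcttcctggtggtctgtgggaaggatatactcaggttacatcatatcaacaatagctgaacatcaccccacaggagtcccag
Purmorphamine-only, chr9:54703975-54704274, in an intron of *Dnaja4*: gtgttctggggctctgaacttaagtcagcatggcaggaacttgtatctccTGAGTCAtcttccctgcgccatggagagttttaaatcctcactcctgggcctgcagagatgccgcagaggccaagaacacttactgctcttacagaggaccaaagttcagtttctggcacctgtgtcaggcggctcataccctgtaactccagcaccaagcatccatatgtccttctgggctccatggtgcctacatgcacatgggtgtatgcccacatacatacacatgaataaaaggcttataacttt
The purmorphamine-only sequence held 1 AP-1 match. Neither control-only sequence held a match to any of the 3 motifs within these 300 bases.

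In the block, control cells had 622 H3K27ac peaks covering 416250 bp and purmorphamine-treated cells had 389 covering 241650 bp. A peak was called unshared if the opposite NIH3T3 list had no peak at any of its bases. Of the control peaks 412 were control-only (66.2%), where 41.1% of all control peaks were. Of the purmorphamine peaks 94 were purmorphamine-only (24.2%), where 36.5% of all purmorphamine peaks were. Control-only peaks therefore made up 81.4% of the 506 unshared peaks (95% Wilson interval 77.8 to 84.6%), and 53.7% of the 68919 unshared peaks outside the block. These intervals cover counting error only, since peaks of one list are not independent replicates.

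The excess of 318 control-only over purmorphamine-only peaks was the largest among 531 blocks of 5 Mb with an NIH3T3 peak. The median excess of those blocks was 10, and the next was a block of chromosome 14 from 75000001 with an excess of 247. The most negative block, on chromosome 10 from 35000001, had 96 control-only and 474 purmorphamine-only peaks. By proportion the chromosome 9 block was less extreme, since 24 of the 430 blocks with at least 100 NIH3T3 peaks had a higher share of control-only peaks among their unshared peaks.

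**Figure D1:**
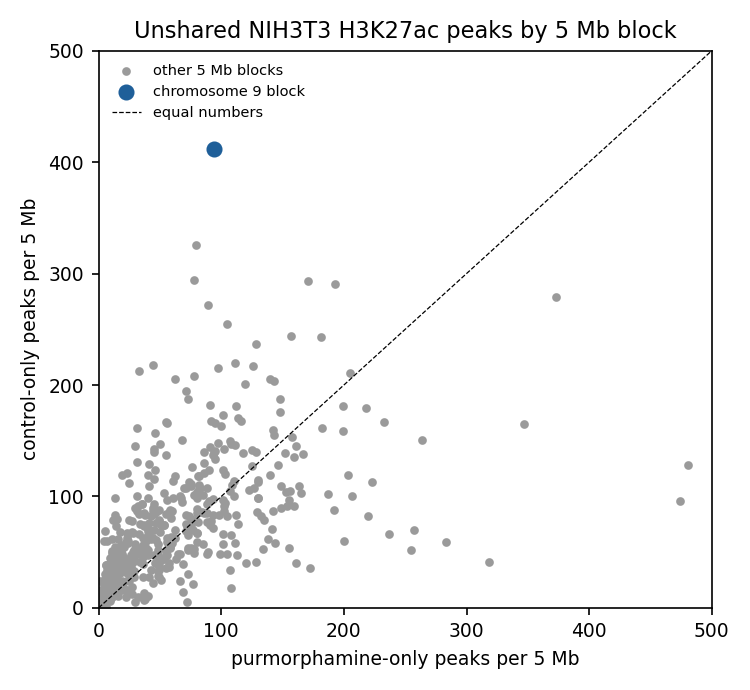
Control-only peaks (y axis, number per 5 Mb) against purmorphamine-only peaks (x axis, number per 5 Mb) in 531 blocks, with a dashed line at equal numbers. The chromosome 9 block, at 412 and 94, lies farthest above the line by difference.

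Within the block the excess was concentrated in 1 gene-poor interval. Of the 412 control-only peaks 289 (70.1%) lay in the 930062 bp between *Zc3h12c* and *Ddx10* (chr9:52168573-53098634), which is 18.6% of the block. The same interval held 21 purmorphamine-only peaks, so it carried 268 of the excess of 318. Its bounds were set at the gene ends after the counts had been seen. *Zc3h12c* encodes a CCCH zinc finger protein of a family that binds RNA, and *Ddx10* encodes a DEAD-box RNA helicase. Both genes are on the minus strand, so the start of *Zc3h12c* and the 3′ end of *Ddx10* face the interval.

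Control peaks covered 22.4% of the interval (208250 bp in 350 peaks) and purmorphamine peaks covered 7.00% (65100 bp in 135 peaks). Control coverage was thus 3.20 times purmorphamine coverage, against 1.72 times in the whole block. In the 100 kb windows of the block the excess was largest at chr9:52700001-52800000, with 59 control-only and 6 purmorphamine-only peaks. The next was chr9:52400001-52500000, with 47 and 0, followed by chr9:52600001-52700000 with 35 and 2. The windows chr9:53000001-53100000 (35 and 3) and chr9:52300001-52400000 (31 and 3) completed the 5 with the largest excess. All 5 lay wholly within the interval except that the window from 53000001 ran past its right end. Among 11958 windows of the genome with an NIH3T3 peak, chr9:52700001-52800000 ranked 2 by excess and chr9:52400001-52500000 ranked 5. The 10 windows with the largest excess in the block summed to 291, while the median window of the block had an excess of 1.

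**Figure D2:**
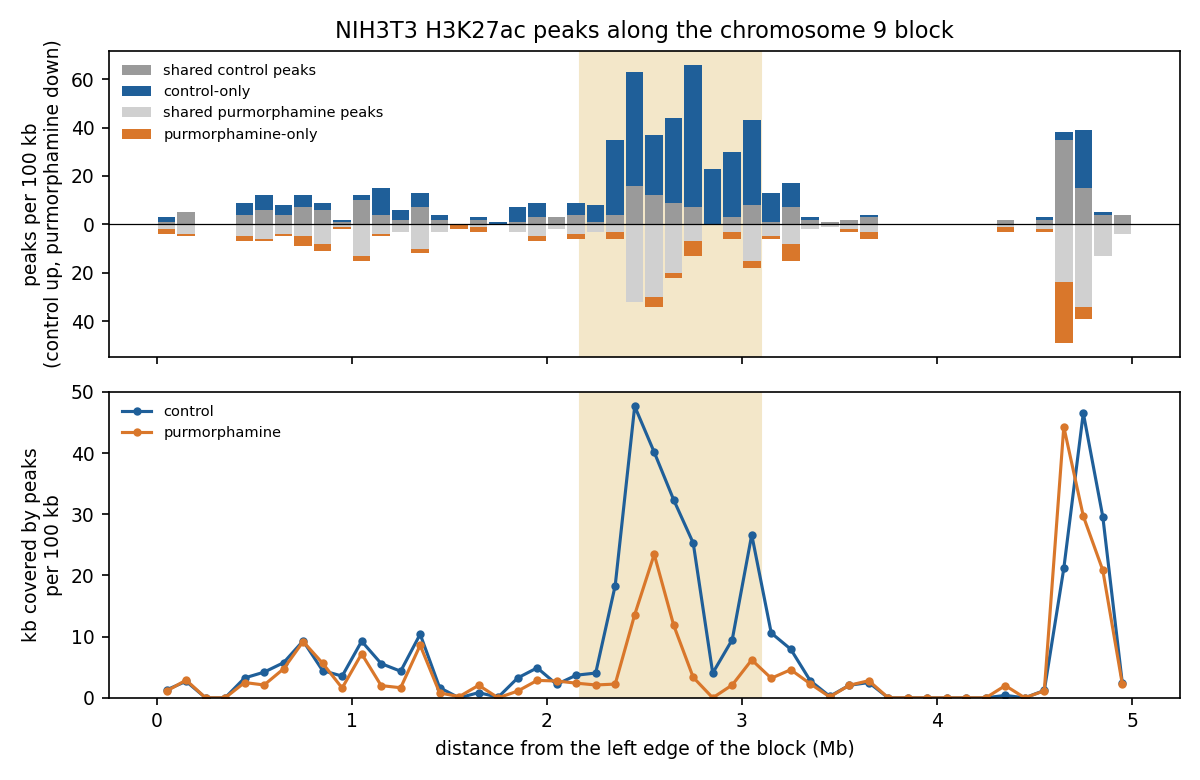
NIH3T3 H3K27ac peaks per 100 kb window (top, control upward and purmorphamine downward, unshared peaks in colour and shared peaks in grey) and kb covered by peaks (bottom) against distance from the left edge of the block in Mb. The shaded span is the interval between Zc3h12c and Ddx10, where 289 control-only peaks stood against 21 purmorphamine-only peaks.

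The control peaks of the interval formed long runs. Peaks no more than 12.5 kb apart were joined, which gave 10 domains in control cells, summing to 693350 bp, and 16 with purmorphamine, summing to 294300 bp. The longest control domain, chr9:52623500-52824399, was 200900 bp long with 123 peaks and ranked 21 by length among 19906 control domains. In the same place the purmorphamine list had 5 domains, of which the longest was 26600 bp. A second control domain, chr9:52406100-52587549, was 181450 bp long with 100 peaks. Its peaks covered 87800 bp. There the purmorphamine list had a domain of 133800 bp (chr9:52454600-52588399) with 54 peaks covering 31600 bp, and another of 24600 bp (chr9:52411750-52436349) with 12 peaks covering 5450 bp. Another control domain of 153350 bp ran from 52959550 to 53112899, across the 3′ end of *Ddx10*. Between 52959550 and the end of the interval purmorphamine peaks fell in 4 short domains, the longest of 23750 bp.

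The strongest peaks of the interval were present in both conditions, and the control-only peaks were mostly weak. Of the 18 control peaks of the interval in the best-ranked 10% of the control list, 2 were control-only (11.1%), where 0.34% of all control peaks so ranked were. Of the 228 in the lower-ranked 50%, 216 were (94.7%), where 65.4% of all were. Control-only peaks of the interval had a median width of 250 bp and shared control peaks 1200 bp, against 200 and 600 bp outside the block. The median distance from a control-only peak of the interval to the nearest purmorphamine peak was 3451 bp, against 1001 bp for all control-only peaks, and 23.5% of the former and 18.3% of the latter were more than 10 kb away.

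The best-ranked control-only peak, chr9:52791200-52792549 in an intron of *Gm1715*, had rank 6776 of 90989 and a log2 ratio over input of 4.16. It ended 51 bp from a purmorphamine peak. The next, chr9:52532300-52533999, had rank 8045 and a log2 ratio of 4.18 and lay 301 bp from one. The one after, chr9:52246300-52246799, had rank 15677 and a log2 ratio of 3.60, and the nearest purmorphamine peak was 40951 bp away. The last pair (chr9:52738000-52738549 with rank 16607 and chr9:52534300-52535099 with rank 17341) were 1551 and 1651 bp from one.

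Peaks called in both conditions were lower with purmorphamine in the interval. This is the same contrast of conditions by which the block was chosen, so it is a description and not separate support. For each shared control peak the purmorphamine peak with the largest overlap was taken. Over 61 shared peaks of the interval the median log2 ratio over input was 3.65 in control cells and 2.96 with purmorphamine. The median difference was -0.67 (quartiles -0.99 and -0.12), and 50 of the 61 were lower with purmorphamine. Outside the block the median difference over 53374 shared peaks was 0.14 and 40.7% were lower. The median width of the paired peaks of the interval was 1200 bp in control cells and 450 bp with purmorphamine. Of the 61 control peaks 22 overlapped more than 1 purmorphamine peak, and the one with the largest overlap need not be the strongest of them. With the strongest one taken instead, a choice made after the values were seen, the median difference was -0.66.

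The control peak chr9:52506300-52517399 (11100 bp, rank 444, log2 ratio 5.13) showed this splitting most clearly. It overlapped 12 purmorphamine peaks, of which the one with the largest overlap was 2650 bp wide with a log2 ratio of 3.96 and the best-ranked was chr9:52506350-52507449 with a log2 ratio of 4.47.

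**Figure D3:**
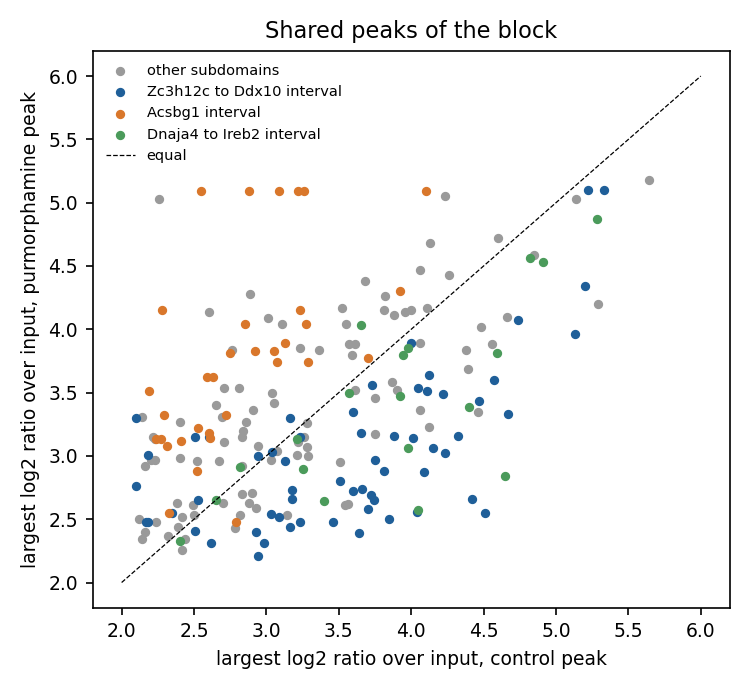
Largest log2 ratio over input of each shared control peak of the block (x axis) and of the purmorphamine peak that overlaps it most (y axis), with a dashed line at equality. Most peaks of the Zc3h12c to Ddx10 interval lie below the line (50 of 61), and most of the Acsbg1 interval lie above it (32 of 33).

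The interval holds a single protein-coding gene, *AI593442* (chr9:52673042-52679780, minus strand), and 4 lincRNA genes. *AI593442* had a control peak at its start with rank 44396 and a log2 ratio of 2.69, and no start peak with purmorphamine. Its body held 4 control peaks, all control-only, and no purmorphamine peak. Just beyond the 1 kb span before its start lay a shared control peak, chr9:52680800-52683499, with rank 5515 and a log2 ratio of 4.32. The purmorphamine peak with the largest overlap there, chr9:52681000-52681899, had a log2 ratio of 3.16, so the absence of a purmorphamine start peak depends on the span chosen. The lincRNA gene *Gm1715* (chr9:52679863-52798774), whose start lies beside that of *AI593442* on the other strand, held 78 control peaks, of which 68 were control-only, and 21 purmorphamine peaks, of which 5 were unshared. The lincRNA gene *AC166902.1* (chr9:52402096-52470346) held 41 control peaks, of which 31 were control-only, and 17 purmorphamine peaks, all shared. *Gm47957* held 9 control peaks, all control-only, and *Gm47960* held none of either list. For comparison, 41.1% of all control peaks and 36.5% of all purmorphamine peaks were unshared.

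The limb lists, which did not enter the choice of the block, showed little at this interval. WT limb buds had 9 H3K27ac peaks there and Shh-/- buds had 10, and 3 H3K4me2 peaks were called in each genotype. Of the 289 control-only peaks 0 overlapped a WT limb H3K27ac peak, which allows a share of up to 1.04% (a limit of 3 peaks in 289; the upper Wilson bound is 1.31%), and 1 overlapped a Shh-/- one. Outside the block 4.37% of control-only peaks overlapped a WT limb H3K27ac peak. The low overlap was not particular to control-only peaks. Of the 61 shared control peaks of the interval 0 overlapped one (upper Wilson bound 5.92%), against 28.5% of shared control peaks outside the block. For Shh-/- limb H3K27ac 3 of the 61 did (4.92%), against 25.9% outside. Promoters were overlapped by 3.28% of the 61 and by 31.5% of shared control peaks outside the block, so the 2 sets differ in kind. H3K27me3 in Shh-/- buds had its best-ranked peak of the whole block at *AI593442* (chr9:52677200-52679799, 2600 bp, rank 484 of 20830, log2 ratio 4.42), over an exon and UTR and reaching the start. H3K4me2 was called at the same start in WT (rank 23976) and Shh-/- buds (rank 27263). Of these limb H3K27ac peaks 5 of 9 in WT were WT-only, where 48.5% of all were. In Shh-/- buds 6 of 10 were Shh-/- only, where 38.4% of all were, and 3 of the 6 were in introns of *AC166902.1*. These counts are too few to tell from the whole lists. Several peaks of both kinds alternated within chr9:52187100-52189199, beside a shared peak, so they need not be separate regions.

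When each peak was assigned to a protein-coding gene, by gene body first and otherwise by the nearest start, 3 genes took 88.7% of the excess. *AI593442* had 203 control-only and 15 purmorphamine-only peaks, *Ddx10* had 66 and 10, and *Zc3h12c* had 41 and 3. *Crabp1*, which encodes a cytoplasmic retinoic acid binding protein, followed with 22 and 1. *Fdx1*, the ferredoxin that passes electrons to mitochondrial cytochromes P450, had 12 and 2, and *Gm32742* had 10 and 0. *1810046K07Rik* had 9 and 2, and *Idh3a*, a subunit of the mitochondrial isocitrate dehydrogenase, had 3 and 0. The cytokine gene *Il18* had 4 and 1, and *Plet1* had 5 and 2. When peaks went to the nearest start alone, the excess at *Idh3a* changed sign and that at *Acsbg1* went from -24 to -14.

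The *Ddx10* body resembled the interval beside it. Of its 22 control peaks 19 were control-only, where 41.1% of all control peaks were. Of its 10 purmorphamine peaks 2 were purmorphamine-only, where 36.5% of all were. The starts of both flanking genes had a peak in each NIH3T3 list. At *Ddx10* the control peak chr9:53247150-53248049 had a log2 ratio of 3.26 and the purmorphamine peak over it 3.15. At *Zc3h12c* the values were 4.85 and 4.59.

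**Figure D4:**
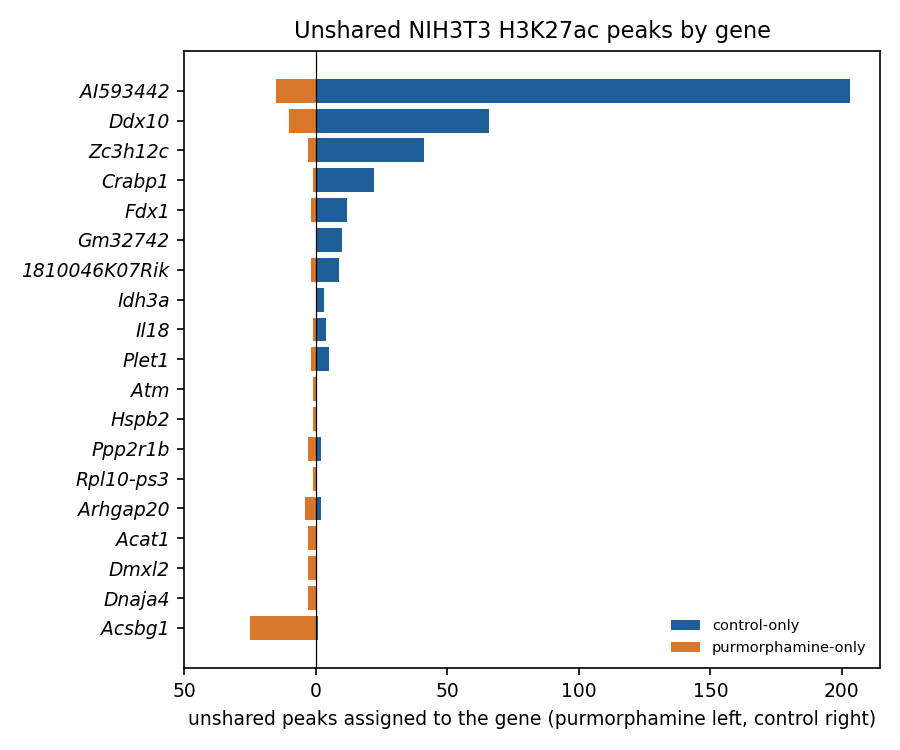
Unshared NIH3T3 H3K27ac peaks assigned to each gene (x axis, number of peaks, control-only to the right and purmorphamine-only to the left) for the 10 genes with the largest excess and the 9 with more purmorphamine-only peaks. AI593442 reaches 203 control-only peaks, and Acsbg1 has 25 purmorphamine-only peaks and 1 control-only peak.

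Near the right end of the block adjacent genes differed in direction. Between the end of *Idh3a* and *Dnaja4* (chr9:54604662-54698872), which holds the acyl-CoA synthetase gene *Acsbg1*, 25 of 47 purmorphamine peaks were purmorphamine-only and 1 of 34 control peaks was control-only. In the whole lists 36.5% of purmorphamine peaks and 41.1% of control peaks were unshared. Coverage between *Idh3a* and *Dnaja4* was 42900 bp with purmorphamine and 19550 bp in control cells. Over the 33 shared control peaks, which overlapped 22 purmorphamine peaks so that several were paired with the same one, the median log2 difference was 0.87, and 1 was lower with purmorphamine. The best-ranked purmorphamine peak there, chr9:54645300-54654399 in an *Acsbg1* intron, was 9100 bp wide with rank 789 and a log2 ratio of 5.09. The best-ranked control peak beneath it, chr9:54647250-54649399, was 2150 bp wide with rank 10365 and a log2 ratio of 4.10.

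The neighbouring 164916 bp from *Dnaja4* to *Ireb2* (chr9:54698873-54863788) went the other way. It held 25 control-only and 5 purmorphamine-only peaks, and 17 of its 19 shared peaks were lower with purmorphamine, with a median difference of -0.35. Its best-ranked control peak, chr9:54794100-54809349, was 15250 bp wide, with rank 489 and a log2 ratio of 5.28, and lay downstream of *Crabp1*. The best-ranked purmorphamine peak within it, chr9:54798700-54802749, was 4050 bp wide with rank 2069 and a log2 ratio of 4.87. The *Crabp1* start had a log2 ratio of 3.92 in control cells and 3.47 with purmorphamine. *Dnaja4*, a co-chaperone gene at the left end of this stretch, had 3 purmorphamine-only peaks and no control-only peak. Of the 3 best-ranked purmorphamine-only peaks of the block 2 were in its introns, at chr9:54703850-54704399 (rank 15309, log2 ratio 3.72) and chr9:54703100-54703449 (rank 23931, log2 ratio 3.34). The other was in an *Acsbg1* intron at chr9:54621300-54621699 (rank 22026, log2 ratio 3.41).

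The remaining genes with more purmorphamine-only peaks differed by few peaks. *Acat1*, an enzyme of ketone body metabolism, had 3 and 0 control-only, as did *Dmxl2*. *Arhgap20* had 4 and 2 control-only. The kinase gene *Atm*, the small heat shock gene *Hspb2*, the phosphatase scaffold gene *Ppp2r1b* and *Rpl10-ps3* each had 1 more purmorphamine-only peak than control-only peaks. Of the 60 protein-coding genes of the block 22 had more control-only peaks, 9 had more purmorphamine-only peaks, 13 were equal and 16 had no NIH3T3 peak assigned.

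Gene starts were mostly acetylated in both conditions. A peak lay within 1 kb of a start in both NIH3T3 lists at 39 of the 60 genes, in control cells alone at 3 (*AI593442*, *4833427G06Rik* and *Arhgap20*) and in neither at 18. The control peaks at these 3 starts were weak, with log2 ratios of 2.69, 2.56 and 2.17 in that order. Of the control-only peaks of the block 3.40% were at a promoter (a span from 2 kb before a start to 1 kb after it), against 24.8% of the shared control peaks. Outside the block these shares were 6.57% and 31.5%, and in the block without the gene-poor interval they were 8.13% and 33.6%. Control-only peaks of the block had a median width of 200 bp and shared control peaks 700 bp. The shares were not matched for width, and its part in them was not tested. All 8 mitochondrial genes, including *Sdhd* of the respiratory chain and *Dlat* of the pyruvate dehydrogenase complex, had a start peak in both NIH3T3 lists, and 4 of them had more control-only peaks while 1 had more purmorphamine-only peaks. All 5 genes in the block from the list for DNA damage response, cell cycle and ubiquitin had a start peak in both NIH3T3 lists too. Of their 67 control-only peaks 66 were assigned to the RNA helicase gene *Ddx10*, by its body or as the nearest start. The *Ddx10* body itself held 19, so the 67 reflect its place beside the interval and not the function of the list. The heat shock genes *Cryab* and *Hspb2* share a promoter region, and its peak had a log2 ratio of 3.96 in control cells and 4.14 with purmorphamine. Of the 6 membrane and cytoskeleton genes 4 had a control start peak and 3 a purmorphamine one, with *Rdx*, which links actin to the membrane, at log2 ratios of 5.14 and 5.03. Of the 3 retinoid and steroid genes 2 had a start peak in each NIH3T3 list, and *Cyp19a1*, the aromatase gene, had none. *Chrna5*, an acetylcholine receptor subunit gene, had no NIH3T3 start peak and carried H3K4me2 in both limb genotypes and H3K27me3 in Shh-/- buds.

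The limb lists gave unshared shares near those of the whole lists. Of the WT limb H3K27ac peaks of the block 42 of 85 were WT-only (49.4%, 39.0 to 59.8%), where 48.5% of all were. Of the Shh-/- peaks 33 of 82 were Shh-/- only (40.2%, 30.3 to 51.1%), where 38.4% of all were. For H3K4me2, 15 of 80 WT peaks were WT-only (18.8%, 11.7 to 28.7%; 25.7% of all) and 13 of 84 Shh-/- peaks were Shh-/- only (15.5%, 9.27 to 24.7%; 22.5% of all). All 4 background shares lay within these intervals, so a difference of the block from the genome was not detectable with these numbers of peaks. In bulk limb buds fewer cells with a mark and less mark per cell cannot be told apart.

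The best-ranked limb peaks called in 1 genotype lay apart from the interval, with 1 exception. WT-only H3K27ac peaks were led by chr9:54153500-54153749 near *Cyp19a1* (rank 13628), chr9:54735150-54735349 beside the *Wdr61* start (rank 18780) and chr9:50604000-50604249 at *Timm8b* (rank 18852). Shh-/- only H3K27ac peaks were led by chr9:52188850-52189049 (rank 13701), 20278 bp from the *Zc3h12c* start and adjoining a WT peak. The others were in introns of *Zc3h12c* (rank 17076) and *Ddx10* (rank 17982). WT-only H3K4me2 peaks were led by 1 beside the *Wdr61* start (rank 15848), 1 beside the *Fdx1* start (rank 21687) and 1 in a *Wdr61* intron (rank 22531). Shh-/- only H3K4me2 was led by chr9:53829600-53829999 (rank 8182), 20165 bp from the start of *Sln*, followed by peaks nearest to *Sik2* (rank 22292) and *Plet1* (rank 24661). After *AI593442*, the best-ranked H3K27me3 peaks were at *Elmod1* (rank 2378) and *Arhgap20* (rank 2795).

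Base composition and motifs were compared between classes of peaks. Control-only peaks of the interval had a median GC content of 42.4% and shared control peaks there 41.7%, against 45.3% and 48.5% outside the block. No control peak of the interval held the GLI sequence GACCACCCA, with upper Wilson bounds of 1.31% for 289 control-only and 5.92% for 61 shared peaks. Outside the block 0.16% of control-only and 0.89% of shared control peaks did. Both shares lie below those bounds, so a lack of this sequence could not be seen with these numbers of peaks. AP-1 matches (TGANTCA) were found in 11.4% of 289 control-only peaks of the interval and in 9.02% of those outside the block. In shared control peaks the shares were 47.5% of 61 and 24.1%. TEAD matches (CATTCC) were found in 14.2% of control-only peaks of the interval and 13.7% outside, and in 50.8% and 34.8% of shared control peaks. The shared peaks of the interval were wider. In the central 300 bp their shares were 11.5% for AP-1 and 13.1% for TEAD, against 10.1% and 15.9% in shared control peaks outside the block, so the larger shares over whole peaks were not seen at equal length. In control-only peaks of the interval the shares in 300 bp around the middle were 11.4% and 16.6%. Their median width was 250 bp, so this span ran past the ends of many of them.

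The excess ended within the block. In 1 Mb steps the excess was 11, 28, 239, 44 and -4 from left to right, and the Mb on either side had -7 and 2. At the left edge the control peak just inside (chr9:50003250-50003349, log2 ratio 2.27) and the one just outside (chr9:49990750-49991199, log2 ratio 2.94) were both unshared. At the right edge the control peaks just inside (chr9:54950850-54951499, log2 ratio 4.11) and just outside (chr9:55149350-55149449, log2 ratio 2.22) were both shared.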

How the data were processed

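The authors aligned reads with Bowtie2 2.2.5 to mm10 and called peaks with CisGenome, pooling the 2 replicates of each condition and using input as background. For each peak they deposited a false discovery rate (a q-value), a score (the largest ChIP against input statistic, which sets the rank), the largest log2 ratio over input and the −log10 Poisson p-value. Scores were at least 3.00 and −log10 values at least 5.00 in the deposited lists. Depth per library is unknown from such lists.

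The 137 peaks on sequences other than the assembled autosomes and sex chromosomes were left out. Starts are multiples of 50 as deposited and were treated as 1-based, so positions may be off by 1 bp. Genes came from GENCODE (basic) and sequence from GRCm38, the assembly that mm10 names. Interval functions were tested on simulated data and against bedtools 2.31.1. Shares carry 95% Wilson intervals (scipy 1.17.1), and no test was made. Named items were the 10 genes with the largest excess, all genes with more purmorphamine-only peaks, the 5 leading 100 kb windows, the best-ranked unshared peaks (5 control-only, 3 of each other list), the 3 best-ranked H3K27me3 peaks and functional gene lists. *Usp28*, *Chrna3* and *Chrnb4* of those lists are outside the block. Joined domains and subdomain bounds were chosen after the counts were seen, and members and lists were chosen with earlier results of these data known. One sequence in the block is not reported here.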

Additional observations from a re-analysis of the deposited data

How the results depend on the processing

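No paired analysis was possible because the lists hold pooled replicates and no result comes from a test. Control-only peaks made up 81.4% of the unshared NIH3T3 peaks of the block. This share was 87.5% when gaps of up to 500 bp counted as shared, 77.8% in the better-ranked 50% of every list, 85.5% with a score of at least 5 and 85.2% with peaks within 1 kb merged. Without the *Zc3h12c* to *Ddx10* interval, an alternative chosen after seeing the data, it was 62.8%. The share in that interval, 93.2%, became 95.8% with such gaps shared, 95.7% in the better-ranked 50%, 100% with a score of at least 5 (32 peaks) and 95.8% in base pairs. The WT-only share of limb H3K27ac was 29.4% with gaps shared and 26.7% with a score of at least 5 (4 of 15), and the Shh-/- only share 28%, 25% (4 of 16) and, in base pairs, 27%. In the central 300 bp, shared control peaks of the interval held AP-1 in 11.5% and TEAD in 13.1%. With nearest starts alone the excess at *Idh3a* was -7 and that at *Acsbg1* -14 in place of -24. The cause of these changes was not tested. A further 41 recomputed shares, sums and medians stayed within the counting interval or quartiles, or within 1.5 times, of the reported value. Counts of peaks in the block or at single genes moved by more than 1.5 times in 16 cases, and the excess at *Hspb2* and *Ppp2r1b* became 0 with nearest starts alone. The lists give no read depth, which limits what a missing peak shows: a region below the caller's threshold in 1 list may still carry signal.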
